A study of Mus musculus with 3 samples.

Results

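The genes described here are the interferon regulatory factors (IRFs), the interferon-induced genes and the genes of MHC class I presentation, measured in thymocytes that had or had not received a T cell receptor (TCR) signal. They were chosen by gene symbol: probes that carried exactly 1 gene symbol were averaged per symbol, and symbols of the Irf, Ifi, Oas, Isg, Gbp, Irgm, Iigp, Igtp, Tapbp, H2-K, H2-Q and H2-T series or equal to Mx1, Mx2, Bst2, Xaf1, Rsad2, Eif2ak2, B2m, Mr1, Tap1 or Tap2 were kept. This gave 33 genes, read by 37 probes, of 6795 genes on the array. The 33 comprised 8 IRFs, 2 IRF2-binding proteins, 6 interferon-inducible GTPases, 5 antiviral effectors, 7 genes of the Ifi, Ifit and Ifitm families, Mr1, B2m, Tap1, Tap2 and H2-Ke6. No classical class I heavy chain was among them, so class I is represented by its light chain, its peptide transporter and MR1. H2-Ke6 is listed in RefSeq as Hsd17b8 too, a steroid dehydrogenase gene of the MHC region, and is no class I heavy chain.

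CD69hi RNA was total RNA from thymocytes of wild-type C57BL/6 (B6) mice purified for high surface CD69, a protein that rises after a TCR signal. The other RNA came from thymocytes of Zap70-/- mice, which lack the kinase Zap70 and with it this signal, and these cells were not separated. The sample titles call this second RNA CD69lo. The labels give no age, number or sex of the mice. They also do not say whether each array had its own mice, so every p-value reflects array-to-array spread alone and that spread may be technical. Both RNAs were hybridised together on 3 spotted 2-colour arrays. The dye of the CD69hi RNA was Cy3 for arrays 1 and 2 but Cy5 for array 3. Genotype and purification differ together between the RNAs and cannot be told apart.

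Type I and type II interferons signal through their receptors to JAK kinases and STAT factors. A complex that contains IRF9 binds the interferon-stimulated response element in the promoters of antiviral genes, while the gamma-activated site lies in promoters of targets of interferon-γ. IRFs bind related elements and feed back on interferon production. In the thymus, IRF1 is needed for the development of CD8 T cells, and class I molecules, made of a heavy chain and B2m and loaded with peptides brought in by the TAP transporter, select CD8 T cells.

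The promoters of several of these genes hold the core of the interferon-stimulated response element, searched on both strands as TTTC, any 2 bases and TTTC, or the gamma-activated site, searched as TTC, any 3 bases and GAA. Promoter sequences of RefSeq (GRCm38.p6), running from 250 bases before to 50 bases after the annotated start, were found for 31 of the 33 genes. The core occurred in 14 of these 31 genes, counting every annotated start, against 3.72% of the 5377 measured genes with a promoter and 3.44% of all 32851 promoters of the same length. The gamma-activated site occurred in 10 of the 31, against 8.33% of the measured genes. The genes were chosen by names that partly record induction by interferon, so these shares describe the choice of genes. The core was no more frequent among genes higher in CD69hi RNA (6 of 14) than among those that did not pass (8 of 16). For the gamma-activated site these counts were 3 of 14 and 7 of 16. Irf7, Irf4, Irf9 and Ifi209, which were higher, had no match to the core. The 250 bases before the start are shown for Ifit3, Ifit1, Oas1a and Gbp2, which hold the core and rose in CD69hi RNA, for Irgm2, which holds it and had a ratio near 0, and for Mr1, which was lower in CD69hi RNA and has no match in this window. Each reads in the direction of its gene, and capitals mark the letters of the response element core, which in Oas1a are 2 overlapping matches.
Ifit3 promoter, GRCm38.p6 chr19:34583279-34583528, + strand: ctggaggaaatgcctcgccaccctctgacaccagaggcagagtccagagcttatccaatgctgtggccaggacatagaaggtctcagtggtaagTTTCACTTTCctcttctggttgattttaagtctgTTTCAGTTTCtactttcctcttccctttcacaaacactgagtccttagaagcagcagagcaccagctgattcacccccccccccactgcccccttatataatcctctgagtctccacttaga
Ifit1 promoter, GRCm38.p6 chr19:34640639-34640888, + strand: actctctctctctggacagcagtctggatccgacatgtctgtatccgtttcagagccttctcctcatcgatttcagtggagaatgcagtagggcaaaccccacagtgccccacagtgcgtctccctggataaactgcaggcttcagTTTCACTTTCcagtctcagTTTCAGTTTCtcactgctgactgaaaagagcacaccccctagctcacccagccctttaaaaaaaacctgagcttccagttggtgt
Oas1a promoter, GRCm38.p6 chr5:120907526-120907775, - strand: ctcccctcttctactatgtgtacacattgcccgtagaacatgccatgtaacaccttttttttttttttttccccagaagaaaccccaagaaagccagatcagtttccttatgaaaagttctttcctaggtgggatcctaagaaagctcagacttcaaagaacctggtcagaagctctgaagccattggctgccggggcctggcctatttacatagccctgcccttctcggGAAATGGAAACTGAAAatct
Gbp2 promoter, GRCm38.p6 chr3:142620413-142620662, + strand: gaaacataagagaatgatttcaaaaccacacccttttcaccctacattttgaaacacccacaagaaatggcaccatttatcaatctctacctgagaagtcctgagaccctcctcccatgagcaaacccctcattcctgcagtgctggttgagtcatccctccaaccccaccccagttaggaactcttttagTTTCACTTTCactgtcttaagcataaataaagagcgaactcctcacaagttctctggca
Irgm2 promoter, GRCm38.p6 chr11:58214727-58214976, + strand: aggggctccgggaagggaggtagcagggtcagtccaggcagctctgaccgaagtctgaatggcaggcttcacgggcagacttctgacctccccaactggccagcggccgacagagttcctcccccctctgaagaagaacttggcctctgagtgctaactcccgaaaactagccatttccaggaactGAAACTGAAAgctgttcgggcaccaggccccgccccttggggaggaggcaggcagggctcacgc
Mr1 promoter, GRCm38.p6 chr1:155146815-155147064, - strand: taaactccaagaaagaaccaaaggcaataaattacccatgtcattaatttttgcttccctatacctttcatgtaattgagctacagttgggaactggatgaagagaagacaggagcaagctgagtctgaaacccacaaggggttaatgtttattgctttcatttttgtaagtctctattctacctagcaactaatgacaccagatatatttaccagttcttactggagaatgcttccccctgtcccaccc
The matches of Ifit3 begin 156 and 122 bases before the start, those of Ifit1 104 and 85, those of Oas1a 20 and 14, that of Gbp2 59 and that of Irgm2 64.

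**Figure D1:**
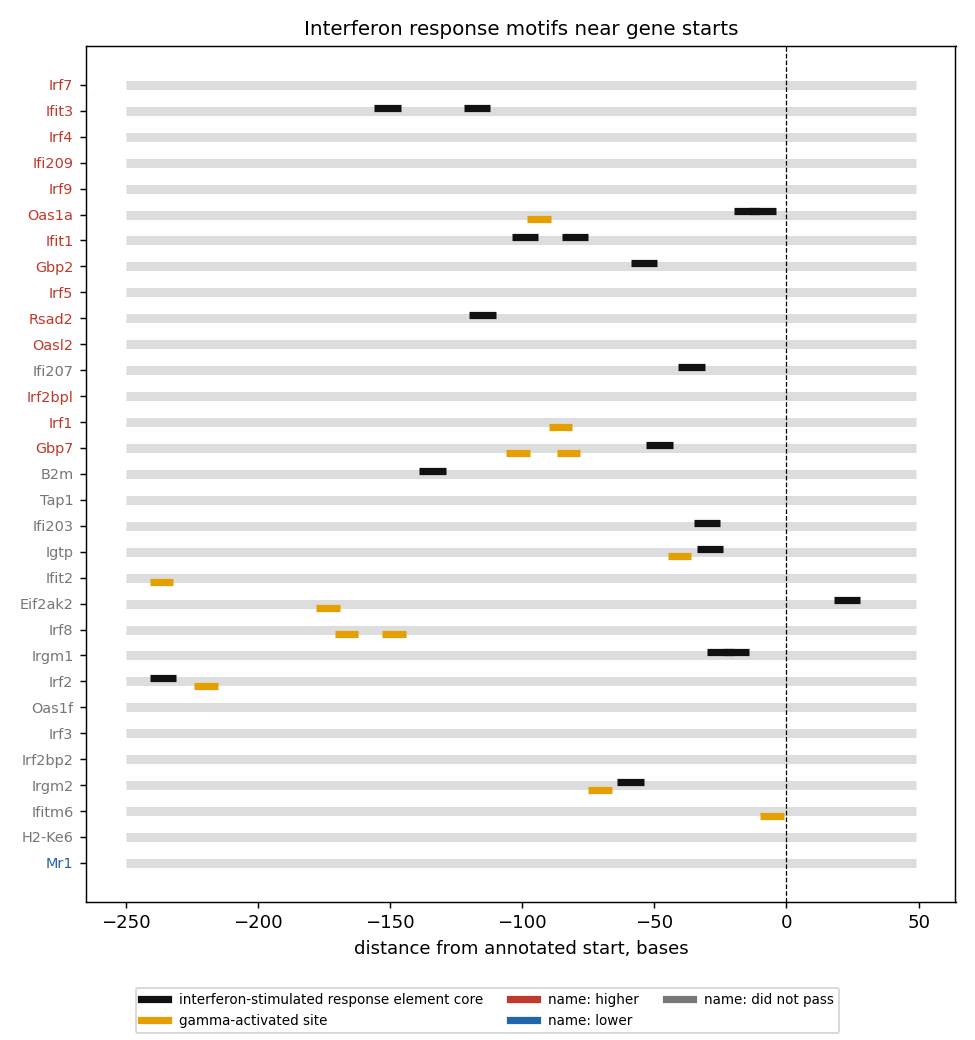
Positions of the response element core (black) and the gamma-activated site (orange) from 250 bases before to 50 bases after the annotated start, for the 31 genes with a promoter, ordered from the highest to the lowest mean ratio; where a gene has several annotated starts, matches of all are drawn on its line. The core lies in 6 of the 14 genes that rose (Ifit3, Ifit1, Oas1a, Gbp2, Gbp7 and Rsad2) and in 8 of 16 that did not pass.

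The authors' value for each probe and array is a log ratio of the 2 dyes, taken here as log2, and all values below are given as CD69hi over Zap70-/-. No source used here states the log base, and natural logarithms would make the folds larger. The direction follows the labelled dyes, read as Cy5 over Cy3, although no label states how the ratio runs. Titles of arrays 1 and 2 name CD69hi before CD69lo, and that of array 3 names CD69lo first. Taken as the first named over the second, the titles would give the opposite direction. Read the other way, each sign would change. Over 8905 features (genes and probes without a single symbol), 368 were higher and 250 lower in CD69hi RNA by limma with Benjamini-Hochberg adjustment (threshold 0.05), or 285 and 85 after the arrays were scaled to a common spread. The deposited medians of the 3 arrays lay between -0.005 and -0.002. The number of arrays, 3, limits the precision.

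Of the 33 genes, 14 were higher in CD69hi RNA, 1 was lower and 18 did not pass. The 15 called are 45.5% of the genes, against 6.94% of all features, and the 14 are 42.4%, against 4.13% of all features called higher, and the 1 that was lower, Mr1, stands against 2.81% called lower. The median log2 ratio of the 33 was 0.73, against 0.01 over all features. It was similar in both dye orientations, at 0.77 on array 1, 0.77 on array 2 and 0.72 on array 3. Ratios lay above 0 on all 3 arrays in 23 of the 33, against 24.3% of features, and 6 were at least 2-fold higher on every array (Irf7, Irf4, Irf9, Ifit3, Ifi209 and Ifit1), against 1.89% of features. With array 1, 2 or 3 left out, 6, 4 and 12 of the 33 were higher, the 12 including Ifi207 and Ifi203, which did not pass with all arrays, where all features gave 1.90%, 1.07% and 3.18%. Mr1 was lower without array 3, where 4.59% of features were, and did not pass without array 1 or 2. Irf7, Irf4, Ifit3 and Ifi209 passed in all 3 of these fits. Before adjustment, 21 of the 33 were higher and 2 (Mr1 and Tap2) lower at the 0.05 level (limma).

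**Figure D2:**
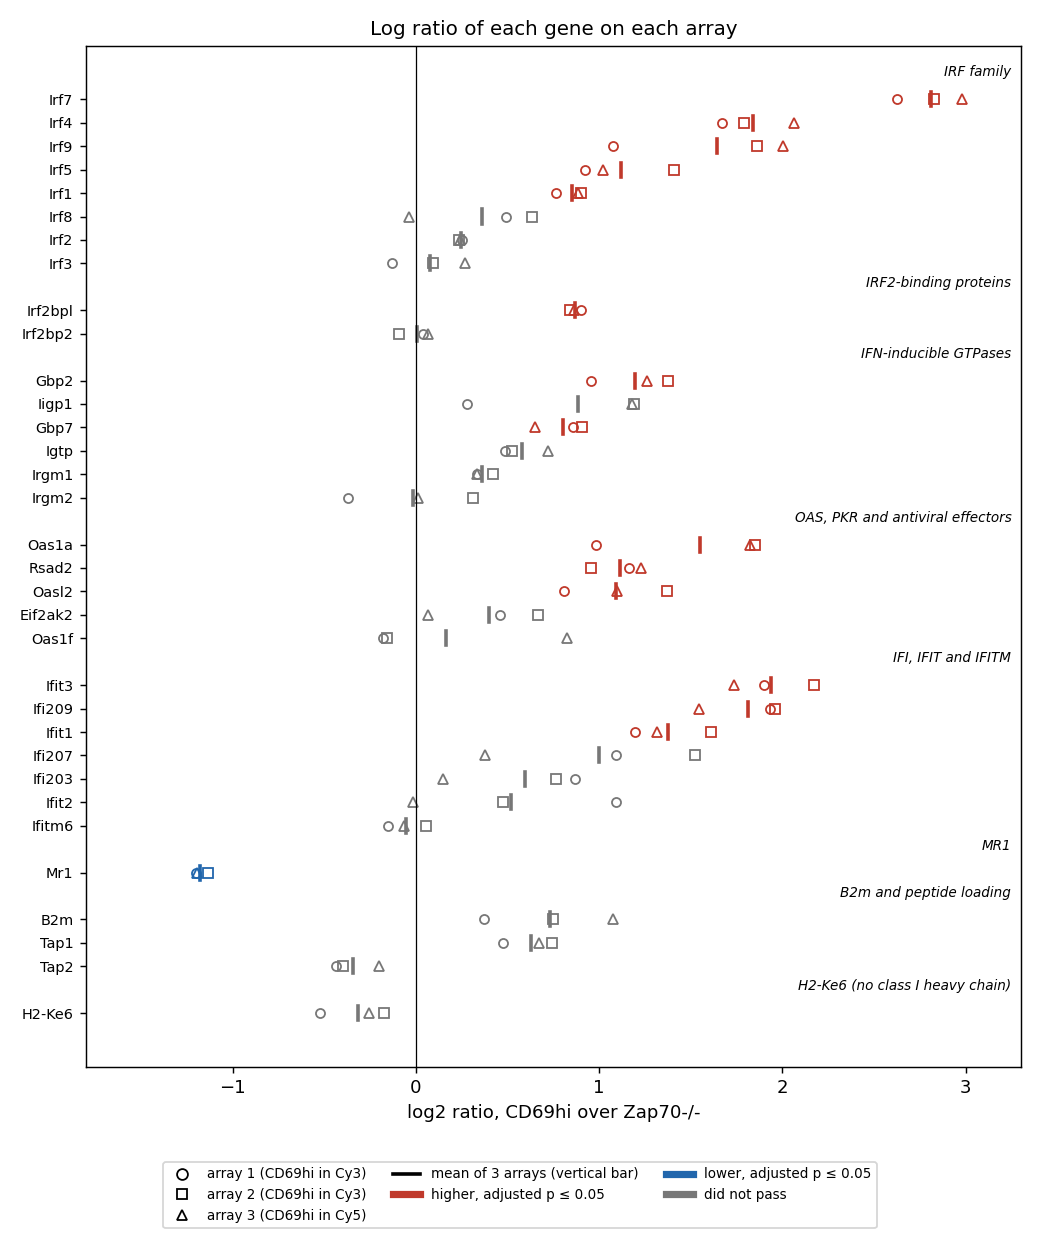
Log2 ratio of each of the 33 genes on each of the 3 arrays (symbols), with the mean as a vertical bar, grouped by role. Irf7 lies furthest right, between 2.62 and 2.98, and Mr1 is the only gene in blue, with 3 nearly equal values between -1.20 and -1.14.

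Genes of macrophages and of MHC class II were higher in the same RNA, and such cells also express many interferon-induced genes. Counts in this paragraph stand against 4.13% of all features called higher and 2.81% called lower. Of 15 macrophage markers 11 were measured, and 7 of the 11 were higher, all 11 lying above 0 on every array, with a median log2 ratio of 1.92 that was 1.74, 1.70 and 1.53 on arrays 1, 2 and 3. The lysozyme gene Lyz2 (2.51 ± 0.08, SD, n = 3) and the lipid carrier gene Apoe (2.46 ± 0.14) led it. Of 8 MHC class II genes 6 were higher (3 without array 2), with a median of 1.39, led by the class II chains H2-Aa (2.39 ± 0.29) and H2-Eb1 (2.30 ± 0.14). Thymocyte markers had a median of -0.25 over 10 genes. Of these Rag1 was lower (-1.19 ± 0.36), though not without array 1 or array 2 (limma adjusted p = 0.13 and 0.18), and without array 3 the number lower was 2. Cd8a (-1.13) and Dntt (-1.05) did not pass, nor did Lat (-0.36), Cd4 (-0.29) and Cd3e (-0.21). Bcl11b (0.07), Thy1 (0.06), Cd3g (-0.007) and Cd3d (-0.002) had means near 0. Of the 10 thymocyte markers, 5 lay below 0 on all 3 arrays and 0 above. The lower calls of Rag1, Ly6d, Gzma and S100a8 in this paragraph were lost with scaled arrays (limma adjusted p = 0.072, 0.082, 0.078 and 0.065), and the higher call of Il2rb with a dye term (limma adjusted p = 0.051). Dendritic cell markers were mixed, with 3 of 7 higher and 2 lower (median 0.67; without array 1 or array 2, 2 were higher and 0 lower), from the chemokine Ccl22 (3.07 ± 0.37) to Ly6d (-2.35 ± 0.88). Among NK and innate-like markers 3 of 8 were higher and 1 lower (median 0.67; without array 2, 0 were called), with Il2rb at 1.82 ± 0.76 and the granzyme Gzma at -2.29 ± 0.94. Of 8 granulocyte genes S100a8 was lower (-0.86 ± 0.27; median of the list -0.68), but in no fit that leaves out an array. Without array 3 the granulocyte genes S100a9, Ngp and Camp were lower instead, and with a dye term these 3 were lower as well as S100a8. No gene passed among 5 B cell, 7 thymic epithelial and 4 erythroid genes (limma; before adjustment 2, 0 and 1 were higher and 0, 1 and 0 lower at the 0.05 level; medians 0.43, -0.27 and 0.06). With 6.94% of all features called, 0 calls in lists this short lies near that share. Without array 2, 1 B cell gene was higher, and without array 3, 1 thymic epithelial gene was lower. Ratios give no level, so which of these cells were present could not be read, and Cd69 and Zap70 were not analysed here. The part of macrophage or class II-bearing cells in the ratios of the interferon genes was not tested. Ratios of bulk RNA do not tell fewer cells of a type from less RNA per cell.

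Among the IRFs, 5 of 8 were higher in CD69hi RNA and 0 lower. Counts in this and the following gene groups stand against 4.13% of all features called higher and 2.81% called lower. Irf7, which drives transcription of the type I interferon genes and is itself induced by interferon, had log2 ratios of 2.62, 2.83 and 2.98 on arrays 1, 2 and 3. The 3 values lie close together, and with a mean of 2.81 ± 0.18 (SD, n = 3) the Irf7 difference was 7.01-fold (limma adjusted p = 0.0051), and no other of the 33 genes lay as far from 0. Irf4, which lymphocytes induce upon antigen receptor signals, gave 1.67, 1.79 and 2.06. Its mean of 1.84 ± 0.20 was a 3.58-fold difference (limma adjusted p = 0.010), and array 3, with the dyes exchanged, gave the highest value. Irf9, a DNA-binding subunit of the complex that type I interferon activates, gave 1.07, 1.86 and 2.00. Array 1 was lower than the other arrays, and the mean was 1.64 ± 0.50, or 3.13-fold (limma adjusted p = 0.029). Irf9 did not pass without array 2 (limma adjusted p = 0.096) or array 3 (limma adjusted p = 0.062).

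Irf5, which acts downstream of Toll-like receptors in myeloid and B cells, gave 0.92, 1.41 and 1.02, with a mean of 1.12 ± 0.26 or 2.17-fold (limma adjusted p = 0.030). It passed in none of the 3 fits that leave out an array (limma adjusted p = 0.088, 0.19 and 0.054 without arrays 1, 2 and 3). Irf1, an activator of class I and immunoproteasome genes, gave 0.77, 0.90 and 0.88, a narrow range around 0.85 ± 0.07 or 1.80-fold (limma adjusted p = 0.032). It passed without array 3 (limma adjusted p = 0.046) but not without array 1 or 2 (limma adjusted p = 0.14 and 0.26). The 3 IRFs that did not pass had smaller ratios. Irf8, a factor of myeloid, dendritic and B lineage cells, was 0.36 ± 0.35, Irf2, which opposes IRF1 at shared elements, was 0.24 ± 0.01, and Irf3, the latent factor that nucleic acid sensors activate, was 0.08 ± 0.20 (limma adjusted p = 0.31, 0.31 and 0.79). For Irf3 the 95% interval of the ratio was -0.30 to 0.45, and the sign of its value differed between array 1 and the other arrays.

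The IRF2-binding proteins are no IRFs themselves: Irf2bp2 is a co-repressor of IRF2 and Irf2bpl its relative. Irf2bpl gave 0.90, 0.84 and 0.86, with a mean of 0.87 ± 0.03 (1.82-fold, limma adjusted p = 0.031). Its 2 probes spread more than these averages show. The first gave 0.81, 0.80 and 1.27 (mean 0.96) and the second 0.99, 0.87 and 0.46 (mean 0.77). Fitted alone, the first passed and the second did not (limma adjusted p = 0.041 and 0.066). The averaged gene did not pass with scaled arrays (limma adjusted p = 0.058), without array 1 or without array 2 (limma adjusted p = 0.15 and 0.23). Irf2bp2 gave 0.04, -0.10 and 0.06, on either side of 0, with a mean of 0.00 ± 0.09 and a 95% interval from -0.33 to 0.33.

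Of the 5 antiviral effectors, 3 were higher in CD69hi RNA and 0 lower. Oas1a, an oligoadenylate synthetase that senses double-stranded RNA, gave 0.98, 1.85 and 1.82. Array 1 was again the lowest, and the mean of 1.55 ± 0.49 (SD, n = 3) was 2.93-fold (limma adjusted p = 0.031). It passed without array 1 (limma adjusted p = 0.032) but not without array 2 or 3 (limma adjusted p = 0.12 and 0.070). Rsad2, which encodes the antiviral protein viperin, gave 1.16, 0.96 and 1.23, and its 2 probes had nearly the same mean (1.12 and 1.11). Its mean was 1.12 ± 0.14, or 2.17-fold (limma adjusted p = 0.023), and it did not pass without array 1 or array 2 (limma adjusted p = 0.099 and 0.12). Oasl2, an oligoadenylate synthetase-like gene, gave 0.81, 1.37 and 1.10, with a mean of 1.09 ± 0.28 or 2.13-fold (limma adjusted p = 0.033), and passed in none of the 3 fits that leave out an array. Eif2ak2, the kinase PKR that halts translation on double-stranded RNA, did not pass at 0.40 ± 0.31. Its 2 probes differed, with means of 0.55 and 0.24, and the second gave 0.59, 0.63 and -0.51 on arrays 1, 2 and 3. Oas1f did not pass either, at -0.18, -0.16 and 0.82, and its sign followed the dye orientation.

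The Ifi, Ifit and Ifitm genes had a median of 1.00, with 3 of 7 higher in CD69hi RNA and 0 lower. The IFIT proteins act against viral RNA. Ifit3 gave 1.90, 2.17 and 1.74, and its mean of 1.94 ± 0.22 (SD, n = 3) was 3.83-fold (limma adjusted p = 0.0099). Ifit1 gave 1.20, 1.61 and 1.32, with a mean of 1.37 ± 0.21 or 2.59-fold (limma adjusted p = 0.018), and did not pass without array 1 or array 2 (limma adjusted p = 0.053 and 0.10). The third measured family member, Ifit2, did not pass, and its values of 1.09, 0.47 and -0.02 covered a wide range. Of the Ifi genes with a HIN domain, a family that includes DNA sensors, Ifi209 gave 1.93, 1.96 and 1.55. Its mean of 1.81 ± 0.23 was 3.51-fold (limma adjusted p = 0.011).

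Ifi207 and Ifi203 of the same family were higher on arrays 1 and 2 than on array 3. Ifi207 gave 1.09, 1.52 and 0.38 and did not pass (limma adjusted p = 0.095), but did without array 3 (limma adjusted p = 0.045). Ifi203 was 0.60 ± 0.39 (limma adjusted p = 0.16). It also passed without array 3 (limma adjusted p = 0.045), and its 2 probes differed, at 0.17 and 1.02, of which the second passed when fitted alone (limma adjusted p = 0.043). A further 2 probes, which list Ifi203 beside Mndal, had means of 1.11, which passed, and 0.945, which did not. Ifi209, Ifi207 and Ifi203 are close relatives, so a spotted cDNA probe may bind transcripts of more than its own gene. Ifitm6, of the family that hinders virus entry, was -0.05 ± 0.10.

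Of the 6 interferon-inducible GTPases, which act at the vacuoles of intracellular pathogens, 2 were higher in CD69hi RNA and 0 lower. The guanylate-binding protein gene Gbp2 gave 0.96, 1.38 and 1.26, with a mean of 1.20 ± 0.22 (SD, n = 3) or 2.29-fold (limma adjusted p = 0.024). A further probe, which lists Gbp2 beside other genes, had a mean near 0. Gbp7 gave 0.86, 0.91 and 0.65, with a mean of 0.80 ± 0.14 or 1.75-fold (limma adjusted p = 0.040). Neither passed without array 1 (limma adjusted p = 0.065 and 0.19) or array 2 (limma adjusted p = 0.14 and 0.32), nor Gbp7 with scaled arrays (limma adjusted p = 0.071). The 4 immunity-related GTPases did not pass. Iigp1 was at 0.28 on array 1 and at 1.19 and 1.18 on arrays 2 and 3, with a mean of 0.88 ± 0.52. Igtp was 0.58 ± 0.13 (limma adjusted p = 0.078, and 0.044 with a dye term), Irgm1 0.36 ± 0.05 and Irgm2 -0.02 ± 0.34. Igtp and Irgm1 lay above 0 on all 3 arrays, while Irgm2 took both signs.

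**Figure D3:**
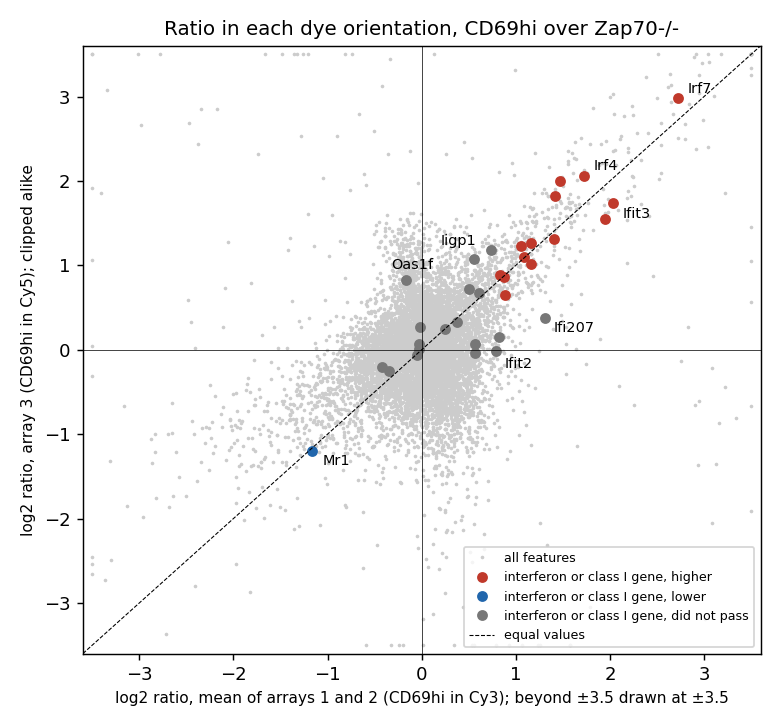
Log2 ratio on array 3 (CD69hi in Cy5) against the mean of arrays 1 and 2 (CD69hi in Cy3) for all features (grey) and the 33 genes (coloured); values beyond the axes are drawn at their edge. Genes that rose lie around the line of equal values, with Ifi209 (1.95 across, 1.55 up) to its right and Irf9 (1.47 across, 2.00 up) to its left. A call favours genes with similar ratios on the 3 arrays, so this placement partly follows from the call. Of genes that did not pass, Ifi207 and Ifit2 lie right of the line and Oas1f left of it.

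None of the genes for the class I light chain and peptide transporter passed. These are 3 genes, and 6.94% of all features were called, so 0 lies near that share. B2m, the light chain of every class I molecule, gave 0.37, 0.75 and 1.08, and its mean of 0.73 ± 0.35 (SD, n = 3) did not pass (limma adjusted p = 0.093), though it did with a dye term (limma adjusted p = 0.0497). Tap1 gave 0.47, 0.74 and 0.67 with a mean of 0.63 ± 0.14 (limma adjusted p = 0.066). The subunit it pairs with in the peptide transporter, Tap2, had values below 0 on all 3 arrays, at -0.44, -0.40 and -0.20, and a mean of -0.35 ± 0.12 (limma adjusted p = 0.21). B2m and Tap1 lay above 0 on every array, and none of the 3 passed (limma; before adjustment, 2 were higher and 1 lower at the 0.05 level). H2-Ke6 was -0.32 ± 0.18 and did not pass.

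Mr1 was the 1 gene lower in CD69hi RNA. It encodes a class I-like molecule that presents vitamin B metabolites to mucosal-associated invariant T cells, which are selected in the thymus on MR1-bearing thymocytes. Its ratios were -1.20, -1.14 and -1.20, the same to within 0.1 in both dye orientations. With a mean of -1.18 ± 0.04 (SD, n = 3), its level in Zap70-/- RNA was 2.26-fold that in CD69hi RNA (limma adjusted p = 0.017). Mr1 passed without array 3 (limma adjusted p = 0.031) but not without array 1 or array 2 (limma adjusted p = 0.081 and 0.12).

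**Figure D4:**
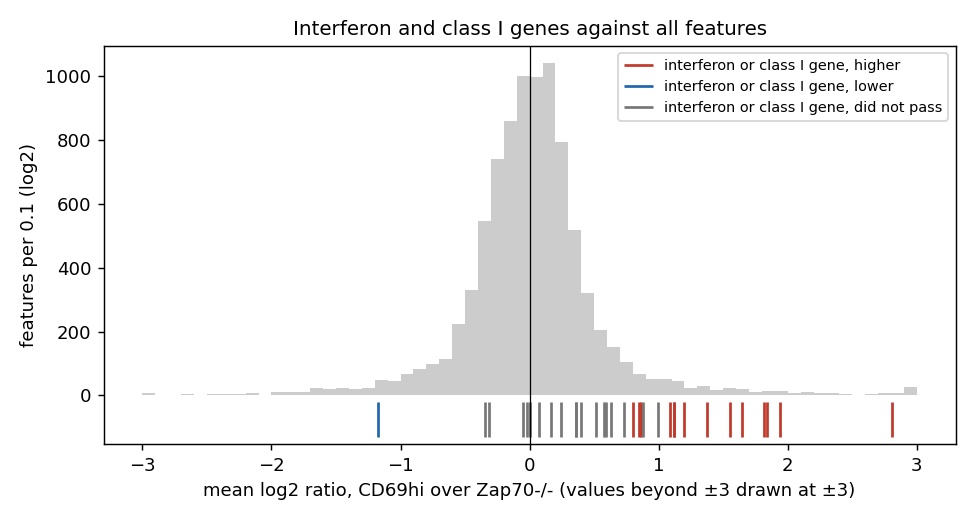
Distribution of the mean log2 ratio over all 8905 features (grey histogram, values beyond the axis drawn at its edge), with a tick below it for each of the 33 genes. The median of the ticks is 0.73 and that of the features 0.01, and Mr1 at -1.18 is apart from the other ticks.

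Of 14 measured genes of interferon receptors, JAK-STAT signalling and its inhibitors, 1 was higher and 2 lower, with a median log2 ratio of -0.05. The 1 higher is 7.14% of the list, near the 4.13% of all features called higher, and 2.81% of features were lower. The receptor chains Ifnar1 (0.08 ± 0.05, SD, n = 3) and Ifnar2 (0.02 ± 0.04) did not pass, and Ifngr1, the ligand-binding chain of the interferon-γ receptor, was lower (-1.12 ± 0.41). The kinase Tyk2, which serves the type I receptor, was higher (0.91 ± 0.19, limma adjusted p = 0.035), and the inhibitor Socs3 was lower (-1.93 ± 0.20). Tyk2 passed in no fit that leaves out an array (limma adjusted p = 0.12, 0.27 and 0.057), and Ifngr1 only in that without array 3. Ifngr1 did not pass with scaled arrays (limma adjusted p = 0.080).

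Of 9 genes of nucleic acid sensing, 3 were higher (33.3%, against 4.13% of all features), with a median of 0.59. The kinase Ikbke, which phosphorylates IRF3 and IRF7, gave 1.38, 1.47 and 1.45 with a mean of 1.43 ± 0.05 (SD, n = 3), or 2.70-fold (limma adjusted p = 0.012). The nucleotide hydrolase Samhd1 (1.10 ± 0.24) and Ddx58, the RNA sensor RIG-I (1.03 ± 0.27), were higher too. Leaving out array 1, 2 or 3 left 1, 0 and 1 of them higher. Ikbke passed without array 1 and without array 3 but not without array 2 (limma adjusted p = 0.067).

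Of 28 further interferon-induced genes, 7 were higher and 1 lower (median 0.40), with Samhd1 and Ddx58 counted here as well. The 7 are 25% of the list, against 4.13% of all features called higher, and 2.81% of features were lower. Ly6c1, which encodes a Ly6C surface antigen, was 3.38-fold higher (1.76 ± 0.15, SD, n = 3, limma adjusted p = 0.010). Trim30a (1.55 ± 0.21), Lgals3bp (1.35 ± 0.24) and Parp14 (1.11 ± 0.18) followed, and Ly6e was lower (-1.13 ± 0.44). With array 1, 2 or 3 left out, 2, 1 and 5 of these genes were higher. Ly6c1 passed in all 3 of these fits, and Trim30a, Lgals3bp, Parp14 and Ly6e only in the fit that omits array 3. With scaled arrays Ly6e did not pass (limma adjusted p = 0.078). The GTPase Tgtp1, singled out after its values were seen, had the highest mean of the list but did not pass, since array 1 (6.59) stood far above arrays 2 and 3 (1.84 and 1.45). Without array 1 it passed (limma adjusted p = 0.044).

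Of 14 genes of class I peptide supply, assembly and relatives of class I, 0 passed (limma; before adjustment, 2 were higher and 1 lower at the 0.05 level), with a median of 0.03. With 6.94% of all features called, 0 of 14 lies near that share and says little about the list. Azgp1, a soluble relative of class I, passed without array 3 (limma adjusted p = 0.032) and, over all arrays, with a dye term (limma adjusted p = 0.037). The list includes the immunoproteasome subunits Psmb8 and Psmb10 and the chaperones Calr and Canx.

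**Figure D5:**
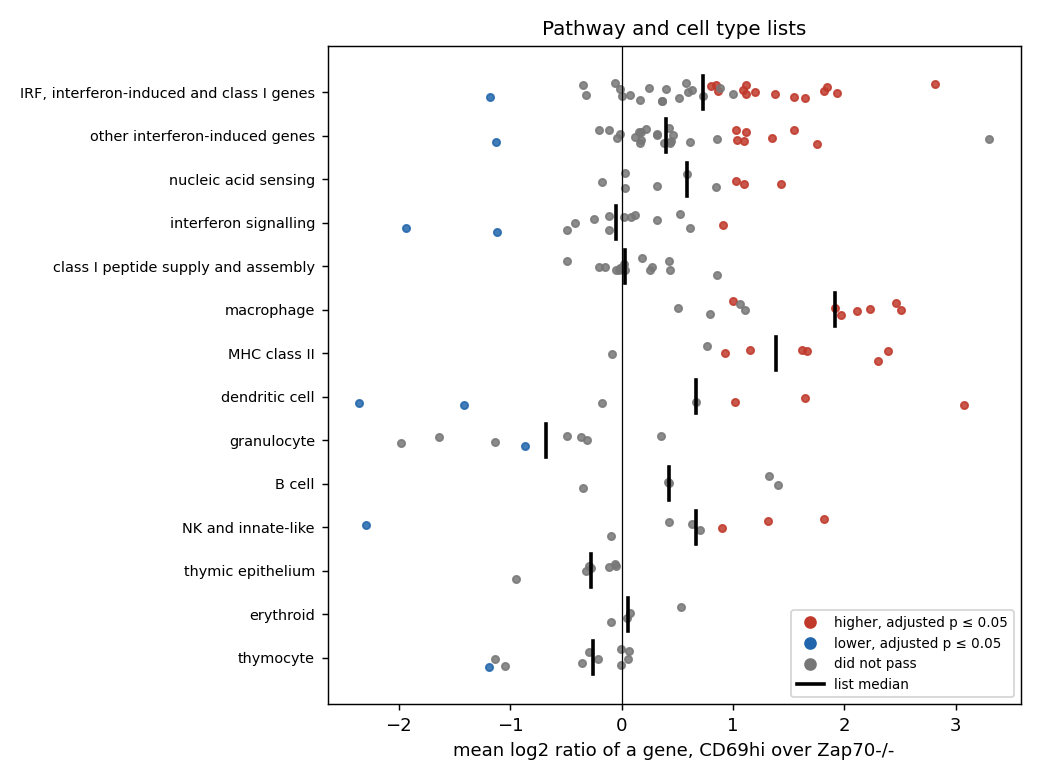
Mean log2 ratio of each gene (points) in the 33 interferon and class I genes, 4 pathway lists and 9 cell type lists, with the list median as a black bar; genes may stand in several lists. The medians of the 33 genes (0.73), macrophage markers (1.92) and MHC class II genes (1.39) lie right of 0, and that of class I peptide supply (0.03) lies near it.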

How the data were processed

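Total RNA of CD69hi and of Zap70-/- thymocytes was compared on 3 spotted 2-colour arrays, 1 group of 3 replicates. For every probe the deposited table holds a log ratio from each array, read as log2. How the authors corrected background, filtered spots and normalized, and which log base they used, is stated in no source used here. Intensities were not analysed here, and dim spots therefore stayed in. Values of arrays 1 and 2 were multiplied by -1, reading the deposited value as Cy5 over Cy3. Before turning, array 3 correlated with arrays 1 and 2 at r = -0.25 and -0.40 across probes, and arrays 1 and 2 with each other at 0.61.

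Of 9596 probes, 7486 had 1 symbol, 483 several and 1627 none. Entrez identifiers of 7395 were found in RefSeq (GRCm38.p6), which changed 0 symbols. Each of 8905 features was fitted with limma 3.58.1 (lmFit, eBayes; R 4.3.3) against 0, two-sided, with Benjamini-Hochberg adjustment over all features and 0.05 as the threshold; 2 residual degrees of freedom were joined by 2.75 from eBayes. The fit was tested on simulated data. A ± is the SD over arrays. Alternatives were scaling, a dye term, robust shrinkage, single probes, array 3 unturned, ratios above 4 left out, and each array left out.

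The genes, their roles and the 4 pathway and 9 cell type lists were chosen with earlier results of these data known. Per-array values are given for each called gene and, in roles with fewer than 2, for those with the largest moderated t. From lists, up to 4 (pathways) or 2 (cells) called genes with the largest ratios are named, and Nlrc5, Ifngr1, Ifnar1 and Ifnar2 where measured; other genes that this rule lists are not reported here. Tgtp1, Parp14, Azgp1, S100a9, Ngp, Camp, Psmb8, Psmb10, Calr, Canx and per-array values of other genes were added after seeing values. So were the thymocyte markers other than Rag1.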

Additional observations from a re-analysis of the deposited data

How the results depend on the processing

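Leaving out an array also removes a residual degree of freedom, which by itself lowers the number of calls. Without array 3 all CD69hi RNA carried Cy3, and dye and RNA cannot be told apart. Leaving out 1 array gave 95 to 283 features higher and 24 to 409 lower over the whole array, and 4 to 12 of the 33 genes higher and 0 to 1 lower (limma; Mr1 had an unadjusted p of at most 0.05 in each of these fits). With a dye term, 562 features were higher and 514 lower, and with scaled arrays 85 were lower. The dye term itself had an unadjusted p of at most 0.05 for 2161 of the 8905 features and 4 of the 33 genes (limma). After adjustment it passed for 0 features. With array 3 left unturned, 0 features and 0 of the 33 genes passed in either direction (limma; before adjustment 342 features and 0 of the 33 reached the 0.05 level). There Irf3, Irf2bp2 and Oas1f took the opposite sign (-0.10, -0.04 and -0.39). The cause was not tested. Among genes near 0, leaving out an array gave -0.019 to 0.18 for Irf3, -0.0275 to 0.0525 for Irf2bp2, -0.18 to 0.16 for Irgm2 and -0.17 to 0.33 for Oas1f. The 15 calls held with robust shrinkage, with a dye term and without extreme ratios. Each array pairs both RNAs, and the test of the ratio against 0 uses this pairing. No paired analysis was possible beyond it because there is 1 group of arrays.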

Other observations

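Probes that list several genes name none of them, but 16 such probes list at least 1 symbol of the series described above, and they add class I heavy chains to the picture. The 1 probe listing 2 genes of the H2-Q series had log2 ratios of 1.24, 1.61 and 1.69 on arrays 1, 2 and 3 and was higher in CD69hi RNA (mean 1.51 ± 0.24, SD, n = 3, limma adjusted p = 0.016). Of 4 probes listing genes of the H2-T series, 3 were lower in CD69hi RNA. Their means were -1.41 ± 0.07, -1.16 ± 0.24 and -1.13 ± 0.29 (limma adjusted p = 0.012, 0.027 and 0.032). The fourth did not pass at -0.67 ± 0.23. It lists the same genes as the probes at -1.16 and -1.13, and all 4 list H2-T9, so these are not separate genes. All counts of such probes stand against 4.13% of all features called higher and 2.81% called lower. The H2-Q and H2-T series encode nonclassical class I molecules, and the H2-Q probe differed in direction from the H2-T probes. Genes of these series are closely related in sequence, and which transcripts each probe bound was not tested. Fits that leave out an array are not given for these probes.

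Of 4 such probes listing Ifi genes, 3 were higher and 1 did not pass. The 2 of them that list Ifi203 beside Mndal were at 1.11 ± 0.21 (limma adjusted p = 0.026) and 0.945 ± 0.39 (limma adjusted p = 0.061). Of 2 probes whose symbols include that of tapasin, which holds class I molecules at the peptide transporter, 1 was higher (1.08 ± 0.17) and 1 did not pass (-0.05 ± 0.39). Both probes that list B2m beside another gene lay above 0 on every array (0.59 ± 0.25 and 0.42 ± 0.24) and did not pass. The other 3 probes did not pass: the one listing Isg15 under 2 identifiers at 1.39 ± 0.67 (limma adjusted p = 0.060), the one listing Tap1 with Psmb9 at 0.25 ± 0.27, and the one listing Gbp2 with Sned1 and Mterf4 at -0.09 ± 0.10 (limma adjusted p = 0.74). The value of this last probe was near 0 on every array, whereas the Gbp2 gene called higher had a mean of 1.20.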
